A study of Mus musculus with 18 samples.

Results

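The 48 genes described here encode the machinery that turns receptor activation into inositol trisphosphate, diacylglycerol and calcium signals, together with the receptors and kinases of sphingosine 1-phosphate (S1P). They were picked by gene symbol alone from the 23337 genes of the count table. The set holds 10 phospholipase C (PLC) isoforms, 3 IP3 receptors, 5 genes of store-operated calcium entry, 9 isoforms of protein kinase C (PKC) and the PKC-binding protein Prkcdbp, 3 protein kinases D, 10 diacylglycerol kinases, 5 S1P receptors and 2 sphingosine kinases.

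In exocrine glands such as the lacrimal gland (LG), acetylcholine and noradrenaline act on receptors coupled to Gq proteins, which switch on PLC-beta. PLC cleaves a membrane phosphoinositide into IP3, which opens calcium channels of the endoplasmic reticulum, and diacylglycerol, which recruits PKC and protein kinase D; emptied stores are sensed by STIM proteins, which open ORAI channels in the plasma membrane, and the resulting calcium rise drives fluid and protein secretion. Lymphocytes use the same enzymes downstream of their antigen receptors, often through other isoforms, and follow S1P gradients through S1P receptors when they leave lymphoid organs.

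Exorbital LGs of male NOR/LtJ mice, a diabetes-resistant strain derived from the NOD mouse that develops lymphocytic inflammation of the LG, were compared with those of male BALB/c mice of the same age, an untreated control strain without such inflammation. Each strain was profiled by bulk RNA sequencing at 3, 8 and 16 weeks, before, at the onset of and during the disease, with 3 libraries per group and 18 in all. The 3-week libraries came from 1 mouse each and the older ones from pools of 2 to 3 mice, so age and pooling cannot be told apart. The sample titles call the diseased strain NOD and the genotype field NOR/LtJ, and the latter name is used here.

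Assigned reads ranged from 6378613 to 20493076 per library (median 15202570), and the 20 most abundant genes took 56.8% to 70.8% of them. Levels are given as CPM, the count scaled to a common library size, after TMM normalisation, and 3 counts corresponded to 0.118 to 0.527 CPM. Lacrimal acinar markers (3 genes in the table) were present in every library and summed to less in NOR than in BALB/c LGs at each age. The sums were 1450 to 1630 against 1810 to 1880 CPM at 3 weeks, 1090 to 1220 against 1720 to 1900 CPM at 8 weeks and 728 to 1170 against 1460 to 1640 CPM at 16 weeks. Bhlha15 made up most of each sum, and its group mean and that of Rab3d were lower in NOR LGs at each age. Aqp5 was not: NOR LGs averaged 121 CPM against 114 at 8 weeks and 94.1 against 94.2 at 16 weeks. None of the 3 genes passed an adjusted p of 0.05 at 3 weeks, and 2 did at each later age. Epithelial markers (5 genes) summed to 695 to 758 CPM in NOR LGs at 8 weeks, against 606 to 652. Their ranges overlapped at 3 and 16 weeks. The part of acinar content in the genes of the set that were lower in NOR LGs was not tested. Parotid markers (4 genes) exceeded 10000 CPM in 4 libraries, namely replicate 2 of the 3-week BALB/c group, replicates 2 and 3 of the 3-week NOR group, where they reached 54000 and 54300 CPM and replicate 2 of the 8-week NOR group. Leaving these 4 libraries out gave 3 genes of the set called at 3 weeks in place of 4, 7 at 8 weeks in place of 8 and 18 at 16 weeks in place of 17. At 3 weeks this left 1 NOR and 2 BALB/c libraries, and the lone library was assumed to vary like the other groups.

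Of the 48 genes, 42 passed the filter on low counts and were tested. The remaining 6 were Plcd4, Plcz1, Prkcc (PKC-gamma), Dgkb, Dgkh and Dgkk, none of which reached more than 16 counts in any library. Dgkk was at 0 in all 3 BALB/c libraries at 16 weeks and had 3, 16 and 6 counts in the NOR libraries, at least 3.59-fold higher against a floor of 3 counts per library.

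Promoters of 4 genes whose strain difference is described below are shown because these differences ran in the same or in opposite directions. Prkca was the conventional PKC lower in NOR LGs and Prkcb the one that was higher, and Plcb2 and S1pr4 rose with age in NOR LGs. The sequences are the 250 bases upstream of the annotated start in RefSeq GRCm38.p6, the same assembly as mm10, 5′ to 3′ on the gene's strand, at chr11:108343889-108344138 (minus strand) for Prkca, chr7:122288875-122289124 (plus) for Prkcb, chr2:118728439-118728688 (minus) for Plcb2 and chr10:81500138-81500387 (minus) for S1pr4, and capitals mark the motifs found.
Prkca: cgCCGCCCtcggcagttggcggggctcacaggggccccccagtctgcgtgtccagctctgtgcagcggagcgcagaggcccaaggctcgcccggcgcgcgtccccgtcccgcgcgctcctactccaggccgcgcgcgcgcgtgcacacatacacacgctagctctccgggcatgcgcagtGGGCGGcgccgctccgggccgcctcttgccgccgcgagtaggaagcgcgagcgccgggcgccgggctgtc
Prkcb: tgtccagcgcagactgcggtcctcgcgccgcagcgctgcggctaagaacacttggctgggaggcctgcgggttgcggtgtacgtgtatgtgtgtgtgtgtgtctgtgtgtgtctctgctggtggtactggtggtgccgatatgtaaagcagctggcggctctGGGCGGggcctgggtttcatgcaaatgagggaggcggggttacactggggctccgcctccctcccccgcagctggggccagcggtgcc
Plcb2: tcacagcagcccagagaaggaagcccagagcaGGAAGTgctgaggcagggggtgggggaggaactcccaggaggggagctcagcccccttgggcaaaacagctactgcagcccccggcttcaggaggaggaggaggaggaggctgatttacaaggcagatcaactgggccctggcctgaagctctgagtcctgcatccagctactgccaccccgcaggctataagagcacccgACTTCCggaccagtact
S1pr4: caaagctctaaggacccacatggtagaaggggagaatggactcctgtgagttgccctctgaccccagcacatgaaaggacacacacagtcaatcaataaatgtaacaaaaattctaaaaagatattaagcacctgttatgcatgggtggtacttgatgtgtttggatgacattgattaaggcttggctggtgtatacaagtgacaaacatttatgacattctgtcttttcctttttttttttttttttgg
The motifs searched on both strands were GGAAGT (ETS-type), TGTGGT (RUNX-type), GGGA and TTCC 2 bases apart (kappa-B-type) and GGGCGG (GC box), none overlapping another in these 4 windows. The Prkca window held 39 CpG dinucleotides and 2 GC boxes, and the Prkcb window 17 CpG and 1 GC box. The Plcb2 window held 4 CpG and 2 ETS-type matches, 1 on each strand, and the S1pr4 window had no CpG and no match to any of the 4. Over the 29 genes of the set whose start matched the RefSeq promoter table, the GC box was present in 22 (75.9%, against 32.7% of 32851 promoters), the ETS-type motif in 4 (13.8% against 19.7%), the RUNX-type motif in 2 (6.9% against 14%) and the kappa-B-type motif in 0 (against 1.21%). Their median GC content was 65.2% against 52.4% for all promoters. A match of letters in a window is a description only.

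NOR and BALB/c LGs were compared at each age to ask which genes of the pathway differed before, at the onset of and during the disease. At 3 weeks, 4 of 42 genes were called, that is, passed edgeR's quasi-likelihood test at an adjusted p of 0.05 with a log2 fold change of 1 or more in either direction. Plcb1, Plcd1 and S1pr5 were higher and Prkca was lower in NOR LGs. As the RNA is from whole glands, fewer cells of a type and less RNA per cell cannot be told apart in any of these differences. Over all 13376 genes tested 5.26% were called at this age. By the adjusted p alone 6 genes passed, 14.3% against 15% of all genes. At 8 weeks 8 genes were called, 7 higher and 1 lower (19% of the 42, against 11.6% of all genes), and at 16 weeks 17, 15 higher and 2 lower (40.5%, against 19.4% of all genes). By the adjusted p alone these were 17 and 26 genes, 40.5% and 61.9% against 27.8% and 50.9% of all genes. Orai2, Prkcq, S1pr4 and S1pr5 passed the filter on low counts only through NOR libraries. The counts of genes called higher in NOR LGs are therefore partly set by the filter. The median log2 fold change of the 42 genes was -0.02 at 3 weeks, 0.12 at 8 weeks and 0.39 at 16 weeks. That of all genes, which TMM normalisation itself keeps near no change, lay between -0.01 and 0.02. The 16-week count fell to 11 without replicate 2 of the 16-week NOR group, and the 8-week count to 5 without replicate 3 of the 8-week BALB/c group.

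Plcb1, Prkca and S1pr5 were called at all 3 ages. A further 5 genes (Plcb2, Orai2, Prkcb, Prkcq and S1pr4) were called at 8 and 16 weeks, and 10 at 1 age only, 9 of them at 16 weeks and Plcd1 at 3 weeks. The other 24 were called at none. The CPM of all 3 NOR libraries lay outside the range of the BALB/c libraries for 10 of 42 genes at 3 weeks (31.3% of all genes), 22 at 8 weeks (45.1%) and 26 at 16 weeks (57.3%), a lower share than among all genes at 3 weeks and a slightly higher one later.

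**Figure D1:**
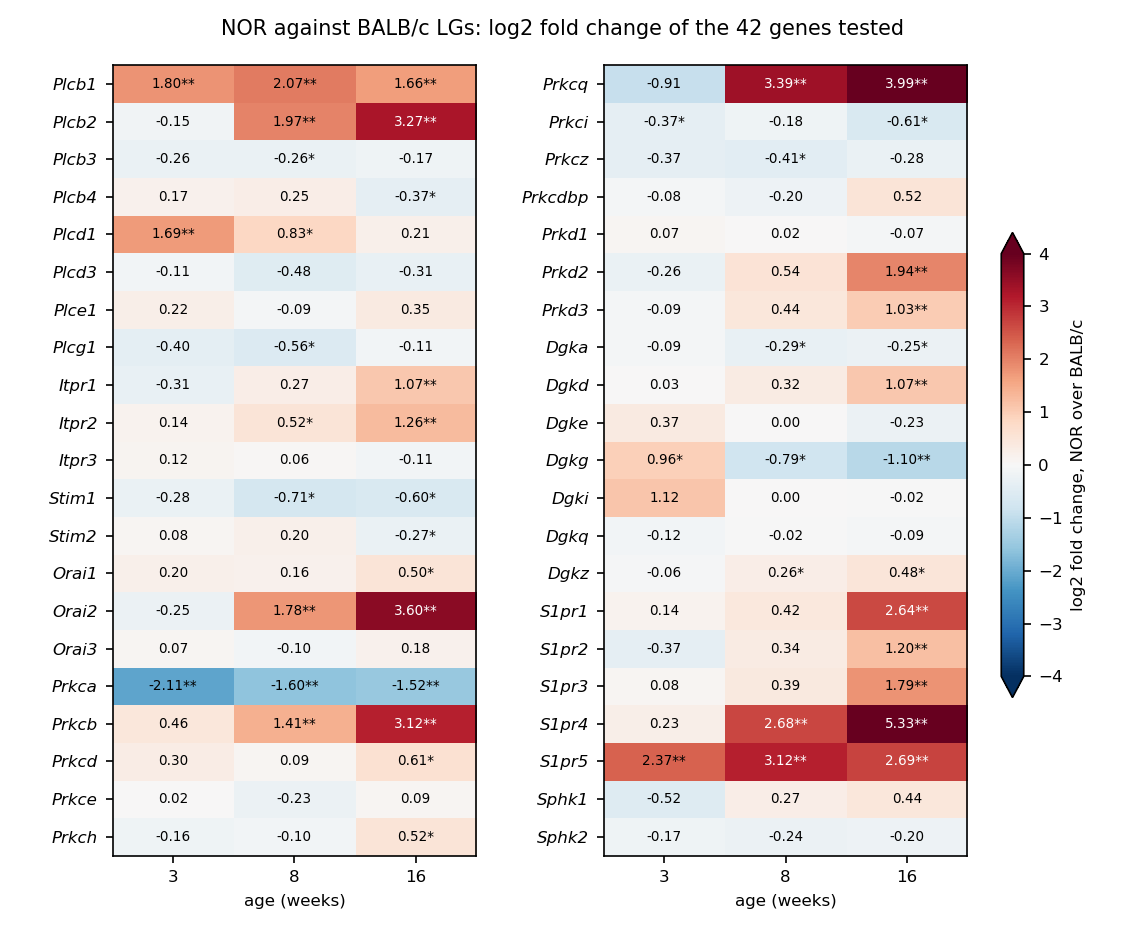
Log2 fold change of NOR over BALB/c LGs for the 42 genes tested, at 3, 8 and 16 weeks (3 libraries a group); colour runs from -4 (blue) to 4 (red). Genes called (adjusted p of at most 0.05 and log2 fold change of 1 or more in either direction) carry a pair of asterisks, and a single asterisk marks the adjusted p alone. The number of genes with a pair of asterisks is 4 at 3 weeks, 8 at 8 weeks and 17 at 16 weeks.

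Among the PLC isoforms, which start the cascade, 2 of 8 tested were called at each age. Plcb1, a PLC-beta switched on by Gq, was measured at 3.78, 5.08 and 4.05 CPM in the 3-week BALB/c libraries and at 13.3, 12 and 20.6 CPM in the NOR libraries. At 8 weeks the values were 1.57, 1.96 and 2.26 CPM in BALB/c and 7.62, 7.81 and 9.17 CPM in NOR, and at 16 weeks 2.23, 1.83 and 2.64 against 9.18, 4.12 and 9.04 CPM. The strains did not overlap at any age, and within each strain the level was highest at 3 weeks. The log2 fold change was 1.80 (SE 0.259, adjusted p = 6.19e-05 in edgeR's quasi-likelihood test), 2.07 (SE 0.286, adjusted p = 2.26e-05) and 1.66 (SE 0.278, adjusted p = 6.48e-05) at the successive ages. The difference was thus present at 3 weeks, and no change in it from 3 to 16 weeks was called.

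Plcd1, a PLC-delta and among the most calcium-sensitive isoforms, showed an early difference that was not called later. At 3 weeks it stood at 2.9, 1.69 and 2.15 CPM in BALB/c and 8.29, 6.37 and 7.56 CPM in NOR LGs (log2 fold change 1.69, SE 0.208, adjusted p = 9.74e-06). At 8 weeks the values were 4.09, 4.68 and 4.18 against 7.33, 7.5 and 8.17 CPM (0.83, adjusted p = 0.00222, below the fold threshold), and at 16 weeks 5.8, 3.43 and 4.47 against 6.28, 4.9 and 4.89 CPM, where the groups overlapped (0.21). The change in the strain difference from 3 to 16 weeks was itself called (-1.48, SE 0.28, adjusted p = 0.00123). Most of it lay in the BALB/c LGs, whose Plcd1 rose from 3 to 8 weeks (0.91, adjusted p = 0.00298). From 8 to 16 weeks the mean fell from 7.67 to 5.36 CPM in NOR LGs and was 4.32 and 4.56 CPM in BALB/c LGs.

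Plcb2, the PLC-beta best known from blood cells, was near the detection limit at 3 weeks in both strains, with 1 to 9 counts per library. In BALB/c LGs it was 0.629, 0.489 and 1.24 CPM at 8 weeks and 1.14, 1.52 and 1.83 CPM at 16 weeks. In NOR LGs it was 4.93, 2.42 and 2.29 CPM at 8 weeks and 8.35, 20.3 and 14.5 CPM at 16 weeks. Every NOR library exceeded every BALB/c library at these ages, and the log2 fold change was 1.97 (SE 0.446, adjusted p = 0.0024) and 3.27 (SE 0.37, adjusted p = 7.6e-07).

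Per kilobase of exon, the scale on which different genes can be compared, Plcb4 was the most abundant PLC-beta in every group. At 16 weeks it made up 79.2% of the summed PLC-beta level in BALB/c and 65.9% in NOR LGs, Plcb3 18.6% and 18.5%, and Plcb2 1.05% and 11.6%. Plcb4 itself was slightly lower in 16-week NOR LGs (log2 fold change -0.37, adjusted p = 0.021), with 83.1, 85.0 and 75.6 CPM in BALB/c and 83.5, 49.3 and 55.5 CPM in NOR. Plcb3, Plce1 and Plcg1 were not called in any comparison. Plcd3 was called only between ages, falling in NOR LGs from 1.32 CPM ± 0.378 (SD, n = 3) at 3 weeks to 0.523 ± 0.26 at 8 weeks (-1.26, adjusted p = 0.0154).

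The IP3 receptors, the calcium release channels of the endoplasmic reticulum, split by isoform. Itpr3, the predominant one here with 86.9% of the summed level per kilobase in 16-week BALB/c LGs, did not pass the test between strains at any age (log2 fold change 0.12, 0.06 and -0.11). It rose from 3 to 8 weeks in both strains, by 0.84 in BALB/c (adjusted p = 6.19e-07) and 0.78 in NOR LGs (adjusted p = 2.23e-06). The other two, Itpr1 and Itpr2, were higher in NOR LGs at 16 weeks.

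Itpr1 was 9.03, 8.6 and 10.3 CPM in BALB/c and 13.7, 23.9 and 20.9 CPM in NOR LGs at 16 weeks (1.07, SE 0.164, adjusted p = 2.7e-05). At 3 weeks it was 6.02, 6.7 and 5.7 against 4.36, 5.7 and 4.75 CPM and at 8 weeks 7.63, 7.48 and 9.25 against 11.3, 8.43 and 9.87 CPM, with overlapping groups at both ages. Without replicate 2 of the 16-week NOR group the 16-week value was 0.90, under the fold threshold. Itpr2 was 6.79, 6.7 and 8.79 CPM against 15.5, 20.6 and 17.3 CPM at 16 weeks (1.26, SE 0.161, adjusted p = 3.3e-06). Its difference was smaller at 8 weeks, with 7.39, 5.73 and 5.75 against 8.91, 8.99 and 9.11 CPM (0.52, adjusted p = 0.0286), and at 3 weeks the groups overlapped at 5.2, 5.65 and 5.13 against 4.14, 7.61 and 6.15 CPM. Of the summed IP3 receptor level per kilobase, Itpr1 made up 6.73% in 16-week BALB/c and 12.7% in NOR LGs, and Itpr2 6.37% and 13.9%.

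Within store-operated entry, the sensor gene Stim1 was lower and the channel gene Orai2 higher in NOR LGs at 8 and 16 weeks. Stim1, the calcium sensor of the endoplasmic reticulum, had an adjusted p of 0.000274 at 8 weeks (log2 fold change -0.71) and 0.000584 at 16 weeks (-0.60), lower in NOR LGs but short of the fold threshold. It averaged 48 CPM ± 3.42 (SD, n = 3) in BALB/c and 31.9 ± 4.64 in NOR LGs at 16 weeks, with no overlap. It was called only within NOR LGs, where it fell by 1.15 from 3 to 8 weeks (adjusted p = 1.93e-06), and in BALB/c LGs it fell by 0.73 (adjusted p = 0.000172). Stim2 was lower by a smaller step at 16 weeks (-0.27, adjusted p = 0.0286).

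Orai2, a channel subunit found in many immune cells, was at 1 to 8 counts per library at 3 weeks in both strains. At 8 weeks it was 0.393, 0.559 and 0.226 CPM in BALB/c and 1.7, 0.992 and 1.29 CPM in NOR LGs (1.78, SE 0.482, adjusted p = 0.00918). At 16 weeks it was 0.285, 0.609 and 0.865 CPM against 4.21, 9.88 and 7.23 CPM (3.6, SE 0.387, adjusted p = 4.17e-07). The groups did not overlap at either age, although the 8-week call was lost without replicate 3 of the BALB/c group (adjusted p = 0.0598). Orai2 went from 1.97% to 16.6% of the summed ORAI level per kilobase at 16 weeks, while Orai3 remained the most abundant at 72% and 57.9%. Orai1, the main channel of store-operated entry in T cells, was higher by 0.50 at 16 weeks (adjusted p = 0.0148), and Orai3 did not pass the test at any age.

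Conventional PKC, activated by calcium and diacylglycerol together, differed between strains in opposite directions by isoform. Prkca (PKC-alpha) was 10.6, 9.12 and 11.3 CPM in BALB/c and 2.29, 2.95 and 1.76 CPM in NOR LGs at 3 weeks. At 8 weeks it was 14.5, 14.5 and 14.1 CPM against 5.04, 4.46 and 4.76 CPM, and at 16 weeks 12.2, 13.4 and 14.8 CPM against 3.8, 5.53 and 4.47 CPM. Prkca rose from 3 to 8 weeks in both strains, past the adjusted p but short of the fold threshold. Means went from 2.33 to 4.76 CPM in NOR and from 10.3 to 14.4 CPM in BALB/c LGs. The strains were far apart at every age. At 3 weeks T and B cell markers (5 genes each) summed to at most 0.242 CPM in any library of either strain. Lacrimal acinar markers summed to 1450 to 1630 CPM in NOR and 1810 to 1880 CPM in BALB/c LGs at that age. The part of cell content in the Prkca difference was not tested. The log2 fold change of Prkca was -2.11 (SE 0.171, adjusted p = 4.66e-08), -1.60 (SE 0.14, adjusted p = 9.79e-08) and -1.52 (SE 0.141, adjusted p = 7.32e-08) at the successive ages. Prkca was the gene of the set with the lowest log2 fold change at each age.

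Prkcb (PKC-beta), which signals downstream of the B cell receptor, was instead higher in NOR LGs, called at 8 and 16 weeks. At 3 weeks it was 1.31, 1.86 and 1.08 CPM in BALB/c and 2.21, 1.81 and 1.41 CPM in NOR LGs, with overlap (0.46). It was 3.62, 2.87 and 3.22 CPM against 11.8, 6.94 and 6.93 CPM at 8 weeks (1.41, SE 0.309, adjusted p = 0.00185) and 4.28, 5.33 and 6.01 CPM against 25.3, 63.5 and 45.9 CPM at 16 weeks (3.12, SE 0.267, adjusted p = 3.1e-08). The lowest 16-week NOR library was thus still above the highest BALB/c library, and Prkcb also rose within BALB/c LGs from 3 to 8 weeks (1.21, adjusted p = 0.0314).

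On the per-kilobase scale, Prkca made up 70.7% of the summed conventional PKC level in 16-week BALB/c LGs and 10.2% in NOR LGs, and Prkcb 25.8% and 87.5%. The sum itself was 2.28 CPM per kilobase ± 0.265 (SD, n = 3) in BALB/c and 5.76 ± 2.26 in NOR LGs. T cell markers summed to 0.228 to 0.769 CPM in 16-week BALB/c and 30.2 to 72.2 CPM in NOR LGs, and B cell markers to 0.381 to 4.56 and 109 to 360 CPM, with all 5 genes of each list called at 8 and at 16 weeks. Within the 16-week NOR group, replicate 1 had the lowest and replicate 2 the highest T and B cell sums. So it was for the macrophage, NK cell, endothelial and fibroblast sums. The same held for every gene of the set called at that age other than Plcb1 and Dgkg, the lower Prkca included. Plcb1 and Dgkg had the reverse order, highest in replicate 1 and lowest in replicate 2. The lacrimal acinar sum did too, at 1170, 728 and 962 CPM in replicates 1, 2 and 3, as did the epithelial sum, at 666, 510 and 582 CPM. The sums of the other marker lists had neither order. The part of lymphocyte or other cell content in these differences was not tested.

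**Figure D2:**
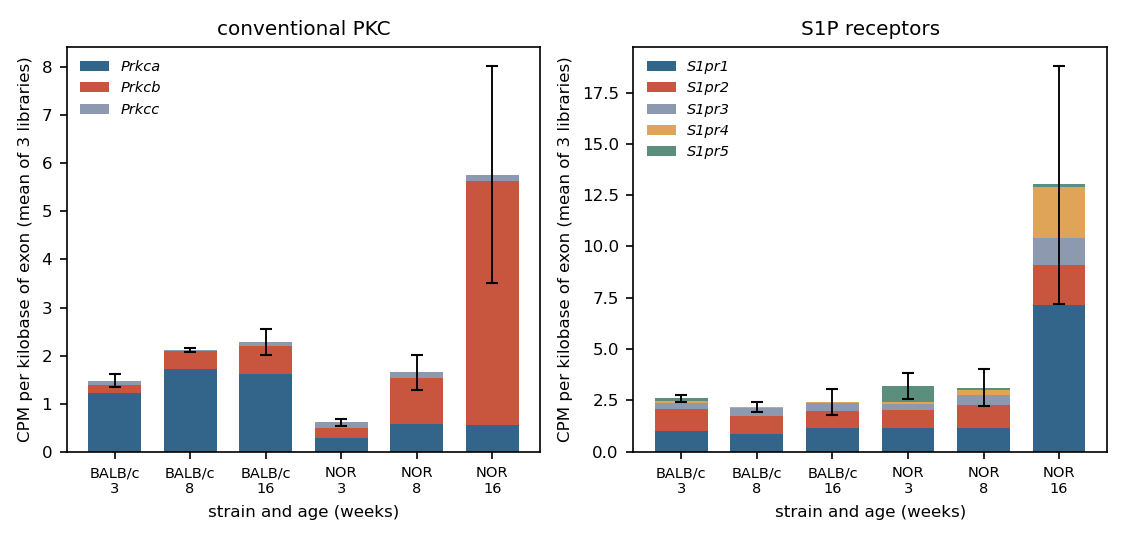
Stacked level of conventional PKC genes (left) and S1P receptor genes (right) in CPM per kilobase of exon, by strain and age; segments are group means of 3 libraries and the bar shows ± 1 SD of the sum. Prkcb replaces Prkca as the largest segment in 8- and 16-week NOR LGs, and the S1P receptor sum reaches 13 in 16-week NOR LGs against 2.44 in BALB/c.

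The PKC isoforms that need diacylglycerol but not calcium are encoded by Prkcd, Prkce, Prkch and Prkcq. Prkcq (PKC-theta), which is recruited to the T cell contact with an antigen-presenting cell, was at 0 to 5 counts in every 3-week library and every 8-week BALB/c library. It was 2.05, 1.55 and 0.881 CPM in 8-week NOR LGs against 0.0786, 0.35 and 0 CPM in BALB/c (3.39, SE 0.688, adjusted p = 0.000953). At 16 weeks it was 4.28, 9.73 and 6.38 CPM against 0.38, 0.0761 and 0.721 CPM (3.99, SE 0.482, adjusted p = 1.69e-06), with no overlap. Between 3 and 8 weeks NOR libraries went from 3 to 75 counts in all, a 15.1-fold ratio with a 95% counting interval of 4.96 to 74.6.

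Prkcd (PKC-delta) was the most abundant of the 4 per kilobase. It averaged 26.9 CPM ± 1.95 (SD, n = 3) in BALB/c and 41 ± 7.85 in NOR LGs at 16 weeks, past the adjusted p (0.000382) but not the fold threshold (0.61), and Prkch was similar (0.52, adjusted p = 0.00743). Prkce did not pass the test between strains at any age. Of the atypical isoforms, which need neither calcium nor diacylglycerol and act in cell polarity, Prkci had a lower level in NOR LGs at 3 weeks (log2 fold change -0.37, adjusted p = 0.00658) and at 16 weeks (-0.61, adjusted p = 1.42e-05), and Prkcz at 8 weeks (-0.41, adjusted p = 0.0191). Prkcdbp was not called in any comparison.

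Protein kinases D are activated by diacylglycerol and by PKC. Prkd2, the isoform prominent in lymphocytes, was 4.16, 3.87 and 3.48 CPM in BALB/c and 2.79, 4.18 and 2.46 CPM in NOR LGs at 3 weeks. It was 4.09, 3.22 and 3.84 against 5.75, 5.39 and 5.11 CPM at 8 weeks (0.54, adjusted p = 0.0921) and 4.89, 3.2 and 4.28 against 10.4, 21.1 and 16.5 CPM at 16 weeks (1.94, SE 0.215, adjusted p = 5.86e-07). The strains overlapped at 3 weeks, and a difference was called only at 16 weeks. Prkd3 was 7.94, 6.37 and 5.44 against 5.5, 6.56 and 6.85 CPM at 3 weeks, 4.8, 3.99 and 4.96 against 6.39, 6.39 and 5.88 CPM at 8 weeks and 5.32, 6.01 and 6.68 against 9.04, 15.7 and 11.5 CPM at 16 weeks. Its 16-week value was close to the threshold (1.03, SE 0.176, adjusted p = 8.53e-05) and fell to 0.79 without replicate 2 of the NOR group and to 0.93 without replicate 1 of the BALB/c group. Prkd1 did not pass the test in any comparison.

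Diacylglycerol kinases end the diacylglycerol signal by converting it to phosphatidic acid. Dgka was by far the most abundant per kilobase, with 63.1% of the summed level in 16-week BALB/c and 53.8% in NOR LGs. Its NOR level was slightly lower at 8 weeks (log2 fold change -0.29, adjusted p = 0.0165) and 16 weeks (-0.25, adjusted p = 0.0205). Dgkz, the second, was slightly higher (0.48, adjusted p = 2.74e-05 at 16 weeks).

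Dgkg, a calcium-responsive isoform, changed direction between ages. At 3 weeks it was 6.29, 5.41 and 5.57 CPM in BALB/c and 11, 12.5 and 10 CPM in NOR LGs (0.96, SE 0.178, adjusted p = 0.000855, just under the fold threshold). At 8 weeks it was 27.0, 29.1 and 25.1 CPM against 14.2, 15.9 and 16.9 CPM (-0.79, adjusted p = 0.000375), and at 16 weeks 25.8, 26.8 and 24.7 CPM against 16.3, 8.86 and 11.2 CPM (-1.10, SE 0.149, adjusted p = 6.18e-06). NOR LGs were above BALB/c LGs in every 3-week library and below them in every later one. The turn followed a rise of 2.22 (SE 0.161, adjusted p = 7.71e-09) in BALB/c LGs from 3 to 8 weeks, against 0.47 (adjusted p = 0.0284) in NOR LGs, and the change in the strain difference from 3 to 16 weeks was -2.06 (SE 0.232, adjusted p = 1.76e-05). Without replicate 2 of the NOR group the 16-week value was -0.85.

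Dgkd was 16.9, 17.4 and 16.9 CPM in BALB/c and 23.8, 48.7 and 33.9 CPM in NOR LGs at 16 weeks (1.07, SE 0.175, adjusted p = 5.2e-05). At 3 weeks the strains overlapped at 20.4, 24.5 and 25.2 against 20.9, 25.4 and 25.5 CPM, and at 8 weeks the values were 15.2, 13.2 and 12.9 against 18.7, 17.8 and 15 CPM (0.32, not past the test). The 16-week value fell to 0.78 without replicate 2 of the NOR group. Dgke, Dgki and Dgkq did not pass the test between strains at any age. Some exon bases of Dgka (3.66%) and Dgkq (16%) overlap a gene on the opposite strand, Pmel and Tmem175, and reads there were not assigned.

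**Figure D3:**
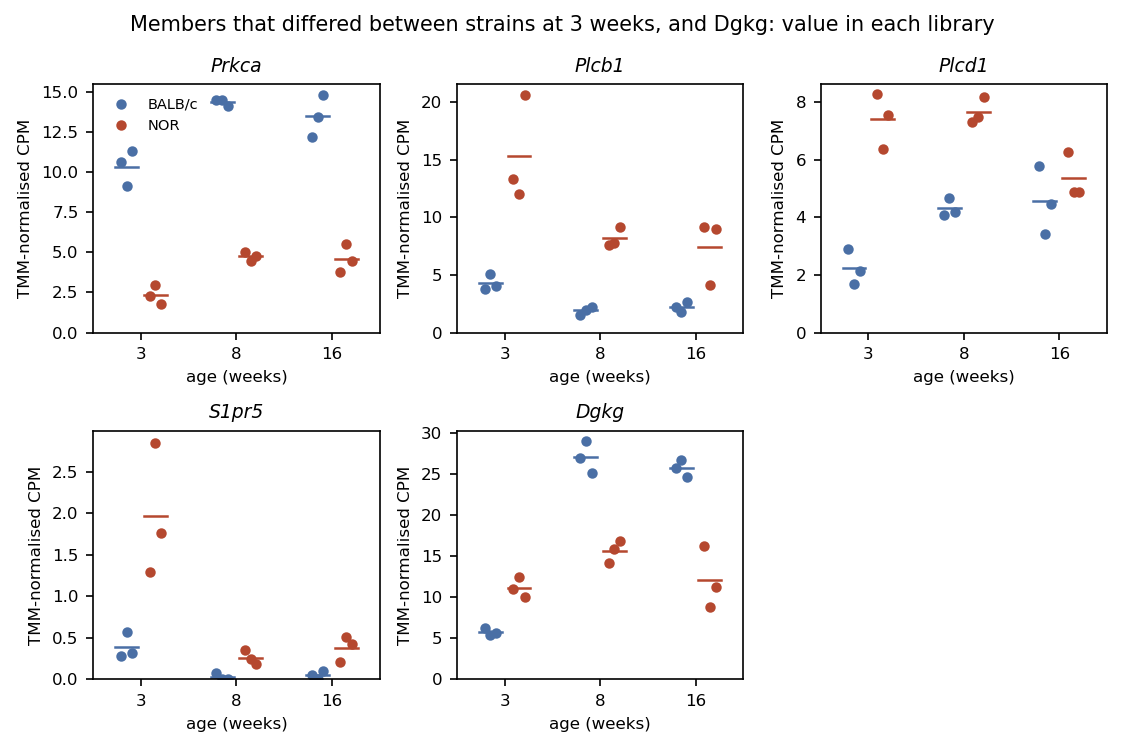
TMM-normalised CPM in each library (points) with the group mean (line) for Prkca, Plcb1, Plcd1 and S1pr5, called at 3 weeks, and Dgkg, by age in weeks; BALB/c in blue and NOR in red. Prkca is lower in all NOR libraries at every age, the Plcd1 groups meet at 16 weeks, and Dgkg is higher in NOR libraries at 3 weeks and lower at 8 and 16 weeks.

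All 5 S1P receptors were called higher in NOR LGs at 16 weeks, against 14.1% of all genes called higher. S1pr4 and S1pr5 passed the filter on low counts only through NOR libraries, so this count is partly set by the filter. S1pr1, the receptor by which lymphocytes leave lymphoid organs and which is also abundant in endothelium, was 3.01, 2.66 and 3.48 CPM in BALB/c and 2.43, 3.8 and 4.39 CPM in NOR LGs at 3 weeks. It was 2.6, 2.38 and 2.93 against 5.28, 2.91 and 2.41 CPM at 8 weeks and 3.09, 2.66 and 4.61 against 14.1, 31.2 and 19.9 CPM at 16 weeks. The strains overlapped at 3 and 8 weeks and were separate at 16 weeks (2.64, SE 0.287, adjusted p = 4.75e-07). Endothelial markers (5 genes) summed to 22.5 to 29.9 CPM in BALB/c and 35.7 to 55.8 CPM in NOR LGs at 16 weeks. Of the 5 genes only Pecam1, which leukocytes also carry, was called (10.9 CPM ± 2.06 in BALB/c and 29.5 ± 9.3 in NOR LGs, SD, n = 3), and the list's log2 fold changes ran from -0.29 to 1.44 with a median of 0.26.

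S1pr4, a receptor largely of lymphoid and myeloid cells, had at most 6 counts in any BALB/c library. At 3 weeks both strains were at 1 to 4 counts per library. At 8 weeks NOR LGs held 0.88, 0.62 and 0.353 CPM against 0.157, 0.0699 and 0.0564 CPM in BALB/c (2.68, SE 0.801, adjusted p = 0.017), a call lost without replicate 2 or 3 of the BALB/c group (adjusted p = 0.0587 and 0.076), without replicate 1 of the NOR group (0.0798) and without the 4 libraries rich in parotid markers (0.0684). At 16 weeks it reached 2.62, 9.73 and 5.53 CPM against 0.285, 0 and 0.0961 CPM, the highest log2 fold change of the set at that age (5.33, SE 0.55, adjusted p = 2.63e-07).

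S1pr2 and S1pr3, which are expressed in many tissue cells including smooth muscle, were also called only at 16 weeks. S1pr3 was 1.9, 1.45 and 1.78 CPM in BALB/c and 4.42, 8.27 and 4.89 CPM in NOR LGs at that age (1.79, SE 0.313, adjusted p = 0.000104). At 3 weeks it was 1.53, 1.45 and 1.14 against 1.79, 1.9 and 0.176 CPM, the last value resting on 1 count, and at 8 weeks 1.42, 1.96 and 1.47 against 2.4, 2.11 and 1.82 CPM. S1pr2 was 2.9, 2.66 and 3.29 against 1.86, 2.19 and 3.16 CPM at 3 weeks, 3.07, 2.87 and 1.58 against 3.4, 3.78 and 2.17 CPM at 8 weeks and 2.23, 1.83 and 3.12 against 3.11, 8.12 and 5.1 CPM at 16 weeks. It was the only receptor of the 5 whose groups still overlapped at 16 weeks (1.2, SE 0.313, adjusted p = 0.00364), and its call was lost without replicate 2 of the NOR group (0.76, adjusted p = 0.0674).

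S1pr5, known from natural killer (NK) cells and oligodendrocytes, followed a different course and was highest at 3 weeks in both strains. It was 0.274, 0.565 and 0.317 CPM in BALB/c and 1.29, 2.85 and 1.76 CPM in NOR LGs at 3 weeks (2.37, SE 0.469, adjusted p = 0.0015). At 8 weeks it was 0.0786, 0 and 0 against 0.352, 0.248 and 0.176 CPM and at 16 weeks 0.0475, 0 and 0.0961 against 0.207, 0.51 and 0.425 CPM. These later levels rest on very few reads. The summed counts were 13 in NOR against 1 in BALB/c libraries at 8 weeks (ratio 11.6, 95% counting interval 1.74 to 493) and 20 against 3 at 16 weeks (7.43, 2.2 to 39).

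The fitted 8-week S1pr5 difference (3.12, adjusted p = 0.0219) was lost without replicate 2 or 3 of the BALB/c group or replicate 1 of the NOR group, with adjusted p between 0.0797 and 0.098. That at 16 weeks (2.69, adjusted p = 0.00504) was lost without replicate 2 of the NOR group (adjusted p = 0.0501), and that at 3 weeks without the libraries rich in parotid markers (2.09 in place of 2.37, adjusted p = 0.115), where 1 NOR and 2 BALB/c libraries were left. S1pr5 fell from 3 to 8 weeks in both strains, by 3.63 in BALB/c (adjusted p = 0.00621) and by 2.88 in NOR LGs (adjusted p = 0.000162). NK cell markers (5 genes) took the opposite course and summed to 0.57 to 1.41 CPM in NOR LGs at 3 weeks and to 7.25 to 16.1 CPM at 16 weeks. Nerve and glia markers (5 genes) summed to 12.5 to 29.5 CPM in NOR and 11.5 to 14.6 CPM in BALB/c LGs at 3 weeks, and to 10.2 to 10.6 and 7.84 to 8.39 CPM at 8 weeks. Of the 3 that were tested, Sox10 was the 1 called at 3 weeks, with a log2 fold change of 1.14 towards NOR (adjusted p = 0.0015). Their part in the S1pr5 values was not tested.

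Per kilobase, the summed S1P receptor level was 2.44 CPM per kilobase ± 0.633 (SD, n = 3) in 16-week BALB/c and 13 ± 5.78 in NOR LGs. S1pr1 had the largest share in both (46.5% and 55.7%), the share of S1pr4 was 2.1% and 18.1%, and that of S1pr2 34.7% and 14.7%. The kinases that make S1P did not pass the test between strains at any age. Sphk2, with 93% of the summed kinase level per kilobase in 16-week BALB/c LGs, was 21.7 CPM ± 2.4 (SD, n = 3) in BALB/c and 19 ± 1.38 in NOR LGs (-0.20, adjusted p = 0.113), and 12.9% of its exon bases overlap Dbp on the opposite strand. Sphk1 was below 2 CPM in every library.

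**Figure D4:**
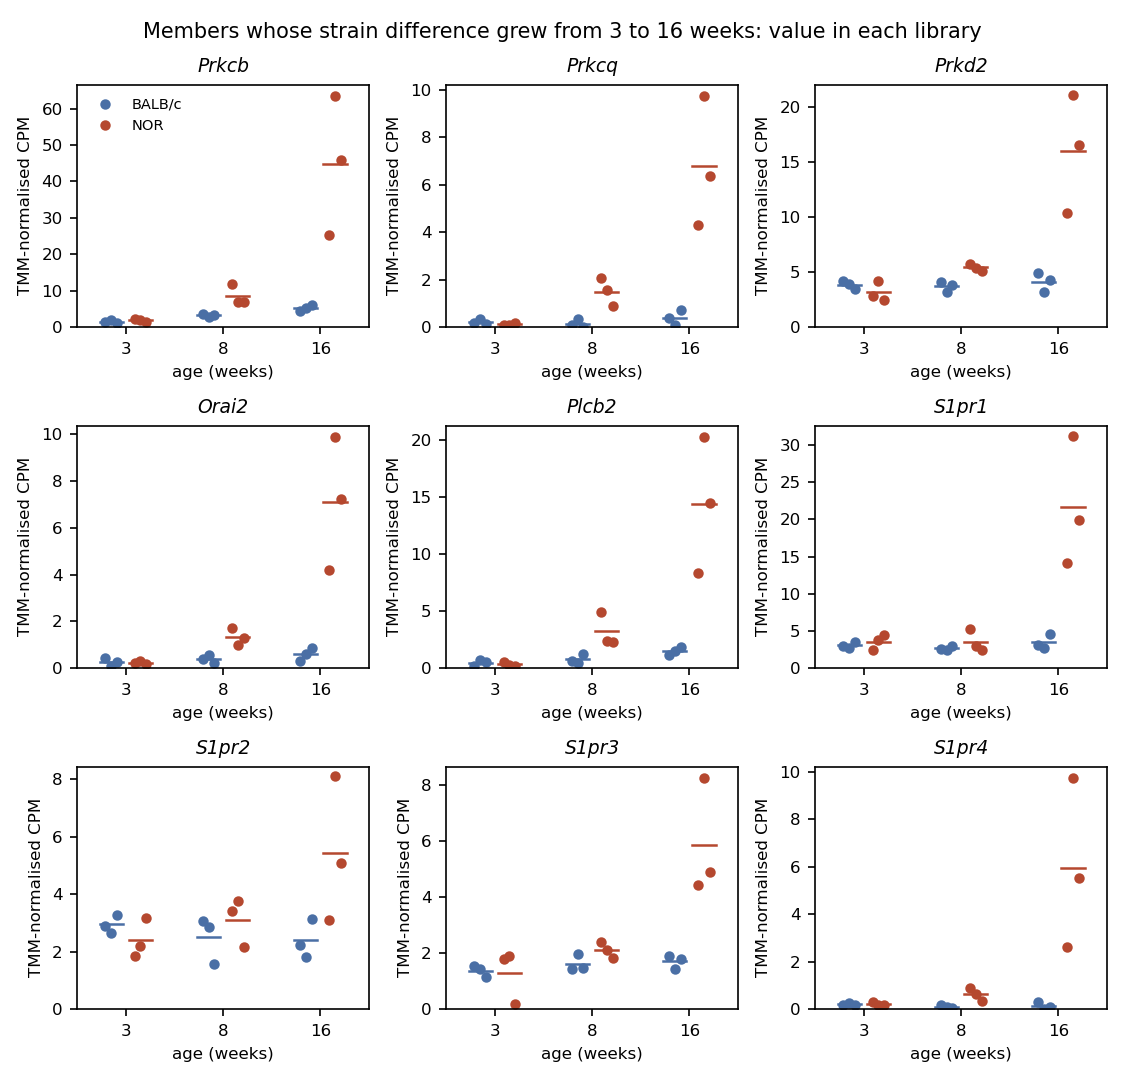
TMM-normalised CPM in each library (points) with the group mean (line) for 9 genes whose strain difference grew from 3 to 16 weeks, by age in weeks; BALB/c in blue and NOR in red. The 16-week NOR libraries lie above all BALB/c libraries of that age in every panel but that of S1pr2, and replicate 2, the middle point, is the highest in each.

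The age comparisons within each strain asked when these differences arose; they share groups with the strain comparisons and are not independent of them. In BALB/c LGs 4 of 42 genes were called between 3 and 8 weeks (6.95% of all genes), Prkcb and Dgkg higher and Plcb1 and S1pr5 lower at 8 weeks. None was called between 8 and 16 weeks by edgeR or DESeq2, with 2 genes at an unadjusted p under 0.05 in edgeR, when 0.441% of all genes were called. In NOR LGs 8 genes were called between 3 and 8 weeks (12.2% of all genes): Plcb2, Itpr1, Orai2, Prkcb and Prkcq rose and Plcd3, Stim1 and S1pr5 fell. Between 8 and 16 weeks 9 genes were called in NOR LGs, all rises (9.66% of all genes, and 8.88% called higher).

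The rises of NOR LGs from 8 to 16 weeks were those of S1pr4 (3.28, SE 0.448, adjusted p = 3.59e-05), S1pr1 (2.63), Orai2 (2.42), Prkcb (2.40), Prkcq (2.20), Plcb2 (2.17), Prkd2 (1.57), S1pr3 (1.5) and Dgkd (1.06) on the log2 scale. Plcb2, Orai2, Prkcb and Prkcq were therefore called in both intervals, and S1pr1, S1pr3, S1pr4, Prkd2 and Dgkd only in the later one. Itpr1, called in the earlier interval at a rise of 1, and Itpr2 each rose by 0.99 in the later one, past the adjusted p but just under the fold threshold. The rise of Itpr1 was thus about equal in both intervals. Without replicate 1 of the 16-week NOR group 17 genes were called in this interval, and without replicate 1 of the 8-week NOR group 15.

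An interaction term tested whether the strain difference itself changed with age. From 3 to 16 weeks it did so for 15 of 42 genes (10.7% of all genes), 13 towards higher levels in NOR LGs, with Plcd1 and Dgkg the exceptions. The largest changes were those of S1pr4 (5.09, SE 1.16, adjusted p = 0.00436), Prkcq (4.90, SE 1.27, adjusted p = 0.00966), Orai2 (3.85, SE 0.869, adjusted p = 0.00408) and Plcb2 (3.42, SE 0.869, adjusted p = 0.00848). Of these, S1pr4, Prkcq and Orai2 passed the filter on low counts only through NOR libraries. Between 8 and 16 weeks there were 3 such genes (2.85% of all genes), Prkcb (1.71, adjusted p = 0.0199), Prkd2 (1.40, adjusted p = 0.0144) and S1pr1 (2.23, adjusted p = 0.00782). Without the 4 libraries rich in parotid markers, with a single NOR library left at 3 weeks, the counts were 9 and 1, and without replicate 1 of the 16-week NOR group the later count was 9. For Prkca, Plcb1 and S1pr5, different between strains from 3 weeks on, no change was called.

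Genes around the set were read from 5 lists of the same pathway. Of 12 tested receptors, G proteins and their regulators upstream of PLC, 3 were called at 16 weeks (25%, near the 19.4% of all genes): the G protein regulator Rgs2 (1.59, adjusted p = 1.02e-06) and the blood cell G protein Gna15 (2.53, adjusted p = 0.000155) were higher and Rgs5, a pericyte gene, was lower (-1.12, adjusted p = 0.0081). A further 5 genes of that list were lower past the adjusted p only. Of 17 genes of the phosphoinositide cycle, which refills the substrate of PLC, Pitpnm1 (1.89) and Pip5k1c (1.22) were called higher, a share of 11.8% that was below that of all genes.

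Diacylglycerol effectors and PKC partners had 7 of 12 genes called, all higher, against 14.1% of all genes. They included the diacylglycerol-binding Ras activators Rasgrp2 (3.95, adjusted p = 2.27e-08) and Rasgrp3 (2.96, adjusted p = 2.62e-07). Rasgrp2 averaged 0.841 CPM ± 0.25 (SD, n = 3) in BALB/c and 13.3 ± 5.38 in NOR LGs. At 3 weeks 1 gene of this list was called (8.33%, against 5.26% of all genes) and at 8 weeks 3 (25%, against 11.6%).

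Of 23 calcium pumps, channels and effectors, 4 were called at 16 weeks, a share of 17.4% beside 19.4% of all genes. Camk4 (3.17, adjusted p = 2.54e-06), Atp2a3 (2.21, adjusted p = 0.000895) and Nfatc2 (1.76, adjusted p = 9.02e-06) were higher, and the skeletal muscle calcium pump Atp2a1 was lower (-2.68, adjusted p = 0.0169). Skeletal muscle markers (5 genes) summed to 27.4 to 169 CPM in 16-week BALB/c and 3.08 to 18.3 CPM in NOR LGs, and their part in the Atp2a1 value was not tested. Of 22 genes of sphingolipid metabolism and S1P transport, 5 were called, at 22.7% also near the share of all genes. Degs2, a sphingolipid desaturase (4.50, adjusted p = 9.99e-09), Cerk, the ceramide kinase (2.45, adjusted p = 5.12e-06), and Ugcg, the glucosylceramide synthase (1.14, adjusted p = 3.17e-05), were the 3 higher genes with the smallest p. Sgms2, a sphingomyelin synthase, was the 1 called lower, at 45.6 CPM ± 1.27 (SD, n = 3) in BALB/c and 16.5 ± 2.39 in NOR LGs (-1.47, adjusted p = 1.15e-06).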

How the data were processed

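Total RNA of exorbital LGs was sequenced with a stranded mRNA kit as single 50-base reads. The deposited values are counts: the authors aligned reads with HISAT2 to mm10 and, per the file header, counted them per gene with featureCounts 1.6.2, with no strand, multi-mapping or multi-overlap option, so reads shared by overlapping or near-identical genes are left out. The deposited exon length (unit other) gave levels per kilobase.

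Counts were tested in R 4.3.3 with edgeR 4.0.16 (TMM, filterByExpr with a minimum count of 10, quasi-likelihood F-test, 1 mean per strain and age over 18 libraries), with Benjamini-Hochberg adjustment over the 13376 genes tested and 9 comparisons made. The script was tested on simulated data. SE were taken from the estimate and its F statistic. With 3 libraries a group an exact two-sided permutation test cannot go below p = 0.1, so none is given. Counting intervals are exact 95% intervals and, like the floor of 3 counts, cover counting error only. Alternatives were DESeq2 1.42.0, other scalings and filters, only the groups compared, a replicate block, and each library left out. The genes and lists were chosen with earlier results of these data known. Every gene called between strains is given by library, those called only between ages by group, and up to 3 genes per direction with the smallest p at 16 weeks from each pathway list, except 1 gene that is not reported here. No replicate pair agreed within sampling noise (lowest chi-square per degree of freedom 4.54). Same-number libraries of the strains correlated from -0.0991 to 0.395 and 5 of 9 pairs passed 0.1, so numbers were not taken to pair libraries. Sequences are from RefSeq GRCm38.p6, and 29 genes matched by symbol and start.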

Additional observations from a re-analysis of the deposited data

Results flagged for a closer look

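The strain difference changed with age for the following genes, by the interaction term of edgeR's quasi-likelihood test (adjusted p at most 0.05 and an absolute log2 change of at least 1). From 3 to 16 weeks the log2 difference of NOR over BALB/c LGs grew by 5.09 for S1pr4, 4.90 for Prkcq, 3.85 for Orai2, 3.42 for Plcb2, 2.66 for Prkcb, 2.51 for S1pr1, 2.21 for Prkd2, 1.71 for S1pr3, 1.57 for S1pr2, 1.38 for Itpr1, 1.12 for Itpr2, 1.12 for Prkd3 and 1.04 for Dgkd. It changed by -1.48 for Plcd1 and by -2.06 for Dgkg. From 8 to 16 weeks it grew by 2.23 for S1pr1, 1.71 for Prkcb and 1.40 for Prkd2. The estimates for S1pr4, Prkcq, Orai2 and Plcb2 start from 3-week libraries with at most 9 counts each. S1pr4, Prkcq and Orai2 also passed the filter on low counts only through NOR libraries.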

How the results depend on the processing

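Under DESeq2, its size factors in edgeR, only the groups compared, the replicate block, TMM leaving out the top 20 genes, and a filter at a mean CPM of 1 or none at all, every count of called genes stayed within 1.5 times the reported one. The replicate block gave 4, 8 and 17 genes between strains at 3, 8 and 16 weeks and 7 between 8 and 3 weeks in NOR LGs, no call of a named gene between strains changed with it, and 3, 4 and 2 of 6 libraries at the successive ages correlated best with their own number. With each library left out in turn, the counts ranged from 4 to 5, 5 to 8 and 11 to 19 between strains at 3, 8 and 16 weeks, 3 to 4 and 0 to 0 in BALB/c and 6 to 11 and 8 to 17 in NOR LGs for the earlier and later age steps, and 11 to 15 and 2 to 9 for the interactions from 3 and from 8 weeks to 16 weeks. The later interaction count of 2 came without replicate 1 of either BALB/c group or replicate 3 of the 8-week NOR group. Leaving out the 4 libraries with over 10000 CPM of parotid markers, chosen after seeing the data, gave 9 and 1 genes for those interactions, with 1 NOR and 2 BALB/c libraries left at 3 weeks and the lone one assumed to vary like the other groups. Signs turned only for differences that had not passed the test. Without those 4 libraries, the 3-week values were 0.79 for Plcb2, -0.33 for Itpr2, -0.13 for Dgkd and -0.43 for S1pr1. With 1 library left out, the 3-week values ranged from -0.59 to 0.38 for Orai2, -0.22 to 0.08 for Prkd3, -0.07 to 0.12 for Dgkd, -0.81 to 0.27 for Plcb2, -0.17 to 0.42 for S1pr3, -0.07 to 0.37 for S1pr4, -0.12 to 0.40 for Itpr2 and -0.01 to 0.39 for S1pr1, and the 8-week value of S1pr1 from -0.02 to 0.63. The causes were not tested. Few counts limit S1pr4 and S1pr5 in BALB/c LGs.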
